A study of Macaca mulatta with 27 samples.

Results

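The 9 genes followed here, CDH1, CDH2, SNAI1, ZEB1, ZEB2, VIM, EPCAM, ESRP1 and GRHL2, encode the cadherins that are exchanged in the epithelial-mesenchymal transition and regulators and markers of that transition. They were chosen by name, with earlier results of these data known, as 9 of the 17967 genes counted, and all 9 were tested in every comparison. The study placed rhesus macaque pluripotent stem cells in 7 media meant to move them from the primed to the naive state and read their RNA as bulk libraries. The cells were of the clonal line LyonES-tGFP-(S3), which carries a tauGFP transgene and a lentiviral STAT3-ERT2, a STAT3 that tamoxifen switches on. Primed cells gave 6 libraries and each protocol 3, 27 in all. The labels do not say whether replicates were separate cultures, so the p-values measure the spread between these libraries.

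TL2i used tamoxifen-activated STAT3-ERT2 with LIF and inhibitors of MEK and GSK3β. TL-CDK8i used an inhibitor of CDK8 and CDK19 in place of the MEK and GSK3β inhibitors. The study ran the other protocols without tamoxifen, so that STAT3-ERT2 stayed inactive in them. E-NHSM and NHSM-v were versions of one naive human stem cell medium, and 4i/L/b combined kinase inhibitors with LIF and bFGF. LCDM, also labelled EPS, held LIF, a GSK3 inhibitor, dimethindene maleate and minocycline, and t2iLGöY held titrated MEK and GSK3 inhibitors, LIF, a PKC inhibitor and a ROCK inhibitor. The columns of the primed libraries carry the letters J and K, 3 each. The meaning of the letters is not given, and they are called primed J and primed K. The labels name more than 1 primed set, but the titles and the protocol fields disagree on which samples belong to which, and neither could be matched to the letters.

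Epithelial cells adhere through E-cadherin, and cells that leave an epithelium lose it and gain N-cadherin and vimentin. Zinc-finger repressors drive the loss, while splicing and transcription factors of the epithelial state oppose it. Pluripotent stem cells grow as epithelial colonies, so the cadherin balance is one measure of what a medium does to them.

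Libraries held 7111886 to 20760914 counts, with a median of 12201171. Primed libraries held 7111886 to 15183387, E-NHSM 17555947 to 20760914, TL-CDK8i 8929940 to 11034150 and TL2i 13359671 to 19482749. NHSM-v libraries held 9504626 to 12201171, 4i/L/b 8375416 to 10610790, LCDM 16799803 to 20046414 and t2iLGöY 12827393 to 13849980. A floor of 3 counts in 1 library came to 0.141 to 0.429 CPM, the counts scaled to library size that give levels throughout. Intervals and floors cover counting error only. In bulk RNA, fewer cells of a type and less RNA per cell cannot be told apart. Over the 36 pairs of libraries within a group, the correlation of log2 CPM ran from 0.918 to 0.987.

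Each protocol was compared with primed cells to ask how far the genes had moved from the starting state. E-NHSM went one way and the other 6 protocols the opposite way for the cadherins, ZEB1, ZEB2, VIM, EPCAM and ESRP1. SNAI1 was lower than in primed cells in all 7 protocols. These 7 comparisons share the same 6 primed libraries and are not independent of each other.

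In E-NHSM, 3 of the 9 genes were higher (CDH1, EPCAM and ESRP1), where 11.1% of the 13304 genes tested were called higher, and 5 were lower (CDH2, SNAI1, ZEB1, ZEB2 and VIM), where 15.1% were called lower. In TL-CDK8i, 4 were higher (CDH2, ZEB1, ZEB2 and VIM) against 22.3% of 13359 genes, and 4 were lower (CDH1, EPCAM, ESRP1 and SNAI1) against 23.8%. TL2i gave the same 4 higher against 25.6% of 13808 genes and the same 4 lower against 25.2%. GRHL2 was not called in E-NHSM, TL-CDK8i or TL2i.

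In the remaining 4 protocols all 9 genes were called, with CDH2, ZEB1, ZEB2 and VIM higher and CDH1, EPCAM, ESRP1, GRHL2 and SNAI1 lower. For NHSM-v the 4 higher genes stood against 28% of 13268 genes and the 5 lower against 30.6%. For 4i/L/b the 4 higher stood against 26.6% of 13558 genes and the 5 lower against 29%. For LCDM the 4 higher stood against 28.2% of 13625 genes and the 5 lower against 28.9%. For t2iLGöY the 4 higher stood against 27.1% of 13662 genes and the 5 lower against 27.2%.

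**Figure D1:**
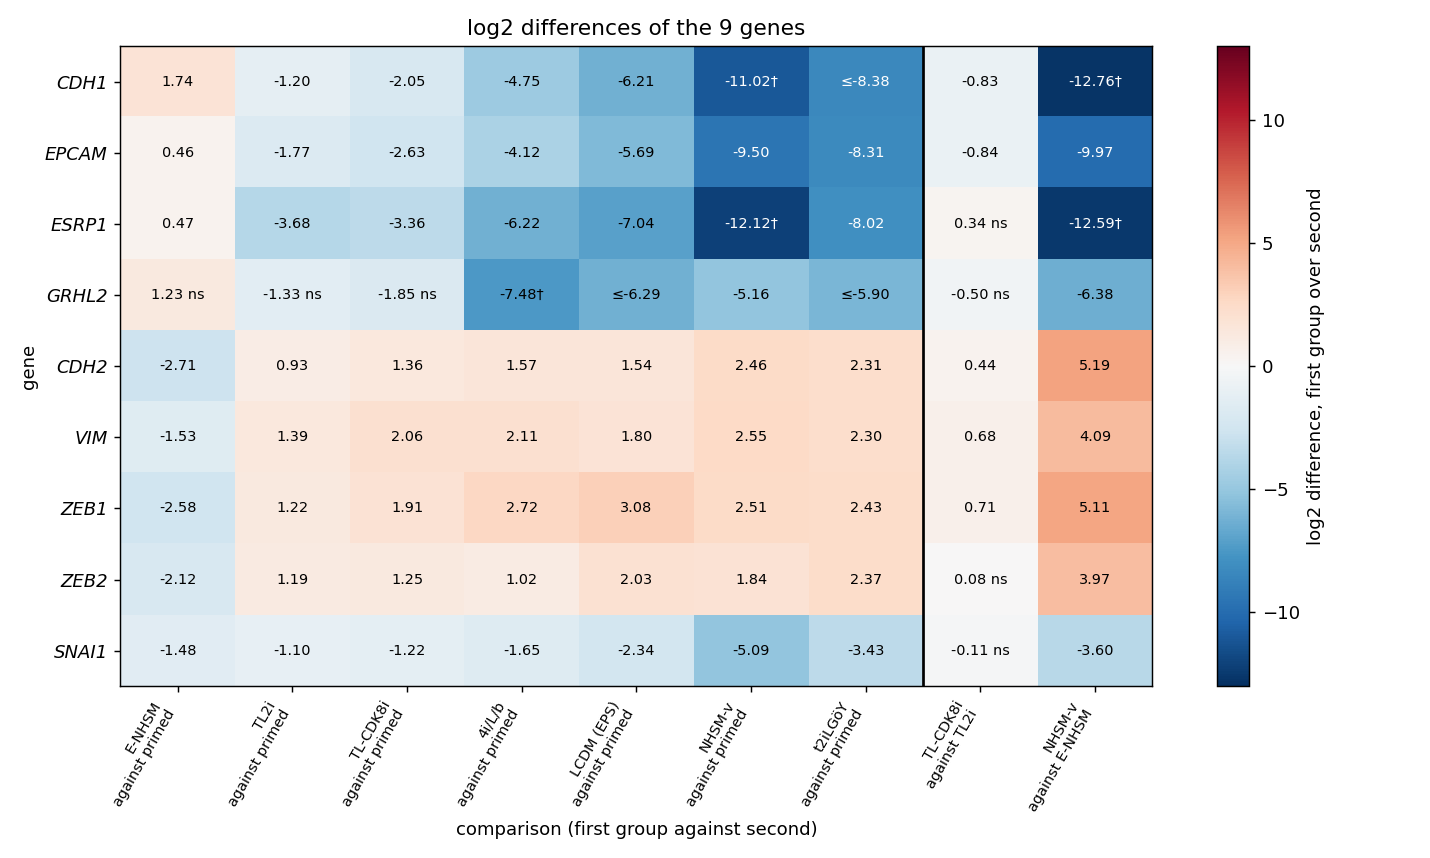
Log2 difference of each of the 9 genes (vertical axis) in 9 comparisons (horizontal axis, first group against second), coloured by size; ≤ marks a limit from libraries all at 0 counts, † a ratio of counts where a group held 1 to 3 counts, and ns a difference that did not pass the test. E-NHSM has CDH1 at 1.74 and CDH2 at -2.71, and the other protocols have the opposite signs.

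CDH1, which encodes E-cadherin, the adhesion molecule of epithelial junctions, differed widely between the protocols. In primed J libraries it stood at 80.7, 108 and 98.3 CPM and in primed K libraries at 30.6, 45.8 and 51.4 CPM. E-NHSM libraries had 217, 234 and 244 CPM, TL2i libraries 22.9, 36.4 and 30.8 CPM, and TL-CDK8i libraries 26.8, 9.47 and 15.4 CPM. The 4i/L/b libraries had 2.11, 3.04 and 2.79 CPM and the LCDM libraries 1.08, 1.32 and 0.325 CPM. NHSM-v libraries held 0, 0 and 1 counts of CDH1, and all 3 t2iLGöY libraries held 0. Every E-NHSM library lay above every primed library, TL2i overlapped with primed K, and the other 5 protocols lay below all primed libraries.

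In E-NHSM, CDH1 rose by a log2 fold change of 1.74 (SE 0.26, adjusted p 6.7e-05), 3.35-fold, in 3 of 3 libraries. That value was 1.27 against primed J alone (adjusted p 7.7e-07) and 2.44 against primed K alone (adjusted p 6.0e-11). In TL-CDK8i its log2 fold change was -2.05 (SE 0.41, adjusted p 9.1e-04), below every primed library in 3 of 3, and -1.36 against primed K alone (adjusted p 0.0038). CDH1 was 2.3-fold lower in TL2i (log2 fold change -1.2, SE 0.35, adjusted p 0.01), with all 3 libraries below the primed median of 66.1 CPM. This TL2i call depended on which primed libraries were used, since against primed K alone the log2 fold change was -0.52 (adjusted p 0.054), and it also failed without TL2i replicate 1 (-1.03, adjusted p 0.058).

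The losses in the remaining protocols were far larger. CDH1 was 26.9-fold lower in 4i/L/b (log2 fold change -4.75, adjusted p 1.0e-06) and 74.2-fold lower in LCDM (-6.21, adjusted p 2.6e-07), in 3 of 3 libraries each. Against primed K alone these values were -4.04 and -5.52. The single count of CDH1 in NHSM-v gave a ratio to primed of 2071-fold lower, with a 95% exact Poisson interval from 372 to 81811 (adjusted p of the fit 1.8e-08, 3 of 3 libraries lower). In t2iLGöY, where no library had a count, CDH1 was at least 334-fold lower (adjusted p 1.0e-07, 3 of 3 libraries lower).

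CDH2, which encodes N-cadherin, the adhesion molecule of neural and mesenchymal cells, moved opposite to CDH1 in each of the 7 comparisons with primed cells. It stood at 230, 200 and 200 CPM in primed J and at 358, 299 and 312 CPM in primed K. E-NHSM libraries had 43.2, 40.6 and 39.1 CPM. TL2i libraries had 505, 544 and 478 CPM, TL-CDK8i libraries 640, 754 and 730 CPM, LCDM libraries 795, 754 and 778 CPM and 4i/L/b libraries 774, 872 and 806 CPM. The highest values were 1312, 1386 and 1201 CPM in t2iLGöY and 1531, 1503 and 1457 CPM in NHSM-v. No protocol overlapped with the primed libraries, E-NHSM being below all 6 and the others above.

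CDH2 was 6.53-fold lower in E-NHSM (log2 fold change -2.71, SE 0.18, adjusted p 4.1e-09, 3 of 3 libraries). The smallest rise was 1.91-fold in TL2i (log2 fold change 0.93, SE 0.16, adjusted p 3.0e-04, 3 of 3 libraries) and the largest 5.52-fold in NHSM-v (2.46, SE 0.15, adjusted p 2.9e-09, 3 of 3 libraries). The log2 fold change of CDH2 was 1.36 in TL-CDK8i, 1.54 in LCDM, 1.57 in 4i/L/b and 2.31 in t2iLGöY. The gain of CDH2 thus spanned a far narrower range than the loss of CDH1.

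The ratio of CDH1 to CDH2 counts within a library does not depend on how libraries are scaled, though its level depends on the lengths of both transcripts. Its log2 value was above 0 only in E-NHSM, at 2.33, 2.53 and 2.64. Primed J libraries had -1.51, -0.89 and -1.02 and primed K libraries -3.55, -2.71 and -2.6. The mean (SD) was -4.1 (0.31) in TL2i, -5.48 (0.87) in TL-CDK8i, -8.26 (0.2) in 4i/L/b and -9.91 (1.06) in LCDM. NHSM-v at -14.33 (0.78) and t2iLGöY at -15.2 (0.16) had so few CDH1 counts that the value depends on the 0.5 added to each count. With 1 added in its place the means were -13.53 and -14.2. CDH1 made up 83.4% to 86.2% of the summed counts of both cadherins in E-NHSM, 26% to 35.1% in primed J, 7.86% to 14.1% in primed K and 4.34% to 6.28% in TL2i.

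**Figure D2:**
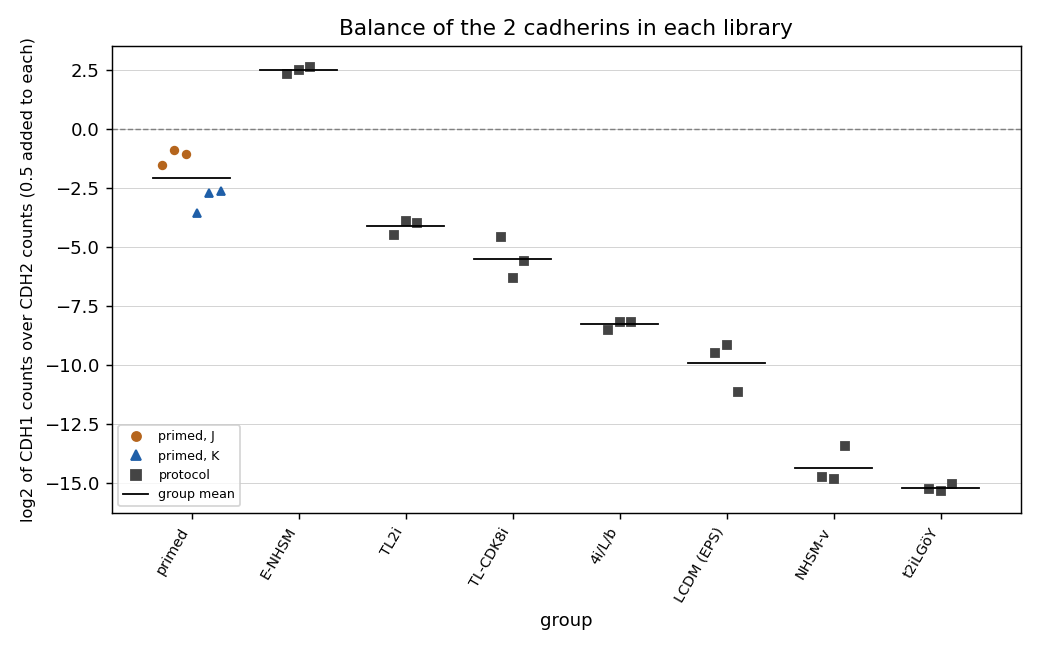
Log2 of CDH1 counts over CDH2 counts (vertical axis, 0.5 added to each) in each of the 27 libraries by group (horizontal axis), with primed J as circles, primed K as triangles, protocols as squares and a line at each group mean. The 3 E-NHSM libraries lie between 2.33 and 2.64, above 0, and all other libraries lie below 0, down to -15.34 in t2iLGöY.

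EPCAM, which encodes an epithelial surface adhesion molecule, and ESRP1, a splicing regulator that keeps epithelial transcript forms, followed CDH1 in direction in all 7 comparisons. EPCAM stood at 147 to 207 CPM in primed libraries (median 177) and at 265, 219 and 241 CPM in E-NHSM. It had 37.2, 68.9 and 47.5 CPM in TL2i, 38.3, 23.3 and 25.9 in TL-CDK8i, 8.36, 12.9 and 9.91 in 4i/L/b and 3.7, 3.49 and 2.92 in LCDM. NHSM-v libraries held 0, 4 and 3 counts of EPCAM and t2iLGöY libraries 14, 0 and 9 counts. All E-NHSM libraries lay above and all other protocol libraries below the primed range.

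The rise of EPCAM in E-NHSM was small, 1.38-fold (log2 fold change 0.46, SE 0.1, adjusted p 0.0028, 3 of 3 libraries). Its log2 fold change was -1.77 in TL2i, -2.63 in TL-CDK8i, -4.12 in 4i/L/b and -5.69 in LCDM, with adjusted p-values from 3.4e-12 to 1.9e-06 and 3 of 3 libraries lower in each. In NHSM-v EPCAM was 723-fold lower (log2 fold change -9.5, adjusted p 1.4e-12) and in t2iLGöY 317-fold lower (-8.31, adjusted p 8.5e-11), in 3 of 3 libraries each. At so few counts single libraries moved these values. Without NHSM-v replicate 2 the log2 fold change was -10.12, and in t2iLGöY it was -9.05 without replicate 1 and -7.71 without replicate 2.

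ESRP1 stood at 121 to 177 CPM in primed libraries (median 153) and at 201, 213 and 203 CPM in E-NHSM, above all 6. TL2i libraries had 9.31, 14.5 and 10.8 CPM of ESRP1, TL-CDK8i libraries 17.4, 9.58 and 17.8 CPM, 4i/L/b libraries 1.92, 1.94 and 2.21 CPM and LCDM libraries 0.91, 1.46 and 0.92 CPM. NHSM-v libraries held 1, 0 and 0 counts and t2iLGöY libraries 1, 22 and 1. Outside E-NHSM every protocol library lay below the primed range.

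In E-NHSM the log2 fold change of ESRP1 was 0.47 (SE 0.11, adjusted p 0.0035, 3 of 3 libraries), a call that was lost when all 8 groups were fitted together (0.48, adjusted p 0.061). ESRP1 was 10.2-fold lower in TL-CDK8i (log2 fold change -3.36, adjusted p 1.7e-08), 12.9-fold lower in TL2i (-3.68, adjusted p 1.3e-09), 74.6-fold lower in 4i/L/b (-6.22, adjusted p 1.6e-11) and 132-fold lower in LCDM (-7.04, adjusted p 6.9e-12), in 3 of 3 libraries each. Unlike CDH1, ESRP1 thus left the primed range by a wide margin in TL2i. The single count in NHSM-v gave a ratio of 4437-fold lower, with a 95% exact Poisson interval from 796 to 175258. In t2iLGöY ESRP1 was 259-fold lower (log2 fold change -8.02, SE 0.44, adjusted p 1.2e-09, 3 of 3 libraries), and replicate 2 held nearly all its counts, since without it the log2 fold change was -10.81.

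GRHL2, a transcription factor that switches on epithelial genes, was the 1 member that split the primed libraries into present and absent. Primed J libraries held 150, 296 and 178 counts (16.8, 31.9 and 25.4 CPM) and all 3 primed K libraries held 0. E-NHSM libraries had 28.9, 26.1 and 30.7 CPM, TL2i libraries 5.05, 5.77 and 3.75 CPM and TL-CDK8i libraries 5.16, 1 and 4.35 CPM. NHSM-v libraries held 6, 0 and 4 counts of GRHL2, 4i/L/b libraries 0, 1 and 1, and the LCDM and t2iLGöY libraries 0. E-NHSM overlapped with primed J, while the TL2i and TL-CDK8i libraries lay between primed J and primed K.

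Against all 6 primed libraries GRHL2 was not called in E-NHSM (log2 fold change 1.23, SE 1.02, adjusted p 0.42), TL-CDK8i (-1.85, SE 1.48, adjusted p 0.33) or TL2i (-1.33, SE 1.4, adjusted p 0.45). In TL-CDK8i and TL2i the direction turned with the primed set, while in E-NHSM it did not. Against primed J alone its log2 fold change was 0.21 in E-NHSM (adjusted p 0.59), -2.84 in TL-CDK8i (adjusted p 0.0012) and -2.34 in TL2i (adjusted p 2.6e-04). Against primed K alone, where GRHL2 had no count, it was higher in E-NHSM (adjusted p 8.9e-11), TL-CDK8i (adjusted p 0.0011) and TL2i (adjusted p 8.2e-05).

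GRHL2 was lower in NHSM-v (log2 fold change -5.16, SE 1.98, adjusted p 0.036), although primed K lay at 0 as well, so that not every NHSM-v library was below every primed one. That call was lost in DESeq2 (-5.15, adjusted p 0.1) and without replicate 1 (-5.95, adjusted p 0.074), replicate 2 (-4.6, adjusted p 0.11) or replicate 3 (-5.19, adjusted p 0.1) of NHSM-v. Against primed J alone it was -6.13 (adjusted p 7.9e-06). In 4i/L/b, GRHL2 was 179-fold lower by the ratio of counts, with a 95% exact Poisson interval from 49.6 to 1480 (adjusted p 0.022), and the call was lost without replicate 1 (-6.67, adjusted p 0.083), replicate 2 (-7.71, adjusted p 0.07) or replicate 3 (-7.56, adjusted p 0.069) of 4i/L/b, while against primed J alone it held (-8.24, adjusted p 2.2e-06). GRHL2 was at least 78.1-fold lower in LCDM and at least 59.6-fold lower in t2iLGöY (adjusted p 0.015 in each), with primed J alone holding the counts. These calls held without any single LCDM, t2iLGöY or primed K library, but without J1, J2 or J3 GRHL2 did not pass the filter on low counts and was not tested, and the same was so in NHSM-v and 4i/L/b.

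ZEB1 and ZEB2, zinc-finger homeobox repressors of CDH1, fell in E-NHSM and rose in the other 6 protocols. ZEB1 stood at 22.7 to 46.5 CPM in primed libraries (median 35.8) and at 5.42, 6.62 and 5.97 CPM in E-NHSM. It had 85.3, 86.2 and 77.8 CPM in TL2i, 130, 151 and 136 in TL-CDK8i, 182, 193 and 193 in t2iLGöY, 190, 212 and 220 in NHSM-v, 267, 233 and 226 in 4i/L/b and 309, 270 and 326 in LCDM. No protocol library fell within the primed range. ZEB1 was 5.97-fold lower in E-NHSM (log2 fold change -2.58, SE 0.24, adjusted p 3.0e-07, 3 of 3 libraries). It was 2.32-fold higher in TL2i (log2 fold change 1.22, adjusted p 4.8e-05) and 8.44-fold higher in LCDM (3.08, SE 0.16, adjusted p 1.2e-09), 3 of 3 libraries in each.

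ZEB2 stood at 42.5 to 71.1 CPM in primed libraries (median 64.7), at 17.4, 12.7 and 12 CPM in E-NHSM and at 328, 230 and 364 CPM in t2iLGöY. Between these on average lay 117, 133 and 130 CPM in 4i/L/b, 152, 128 and 137 in TL2i, 125, 188 and 138 in TL-CDK8i, 223, 232 and 209 in NHSM-v and 263, 229 and 255 in LCDM. The t2iLGöY library at 230 CPM fell within the ranges of NHSM-v and LCDM. Every protocol lay outside the primed range, as with ZEB1, but the order of the protocols differed, ZEB1 being highest on average in LCDM (302 ± 28.4 CPM, SD, n = 3) and ZEB2 in t2iLGöY (307 ± 69 CPM). The log2 fold change of ZEB2 was -2.12 in E-NHSM (SE 0.2, adjusted p 3.8e-07, 3 of 3 libraries), 1.02 in 4i/L/b (SE 0.15, adjusted p 5.2e-05, 3 of 3) and 2.37 in t2iLGöY (SE 0.16, adjusted p 1.3e-08, 3 of 3).

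SNAI1, another zinc-finger repressor of CDH1, went the other way from ZEB1 and ZEB2 outside E-NHSM. Primed libraries had 14.8 to 38 CPM of SNAI1 (median 22.4). E-NHSM libraries had 9.85, 7.73 and 7.97 CPM, TL-CDK8i libraries 10.1, 10.5 and 11, TL2i libraries 13.1, 9.44 and 10.8, 4i/L/b libraries 8.26, 9.36 and 5.77 and LCDM libraries 7.23, 3.3 and 3.57. The lowest values were 2.59, 2 and 1.88 CPM in t2iLGöY and 0.338, 1.13 and 0.616 CPM in NHSM-v. All 21 protocol libraries lay below all 6 primed libraries.

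The loss of SNAI1 was smallest in TL2i (log2 fold change -1.1, SE 0.29, adjusted p 0.0068, 3 of 3 libraries). It was -1.22 in TL-CDK8i, -1.48 in E-NHSM, -1.65 in 4i/L/b and -2.34 in LCDM, with adjusted p-values from 1.1e-04 to 0.0033. In t2iLGöY SNAI1 was 10.8-fold lower (log2 fold change -3.43, SE 0.38, adjusted p 2.0e-06, 3 of 3 libraries) and in NHSM-v 34-fold lower (-5.09, SE 0.47, adjusted p 2.5e-07, 3 of 3 libraries).

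VIM, which encodes the intermediate filament protein vimentin of mesenchymal cells, took the same directions as CDH2. Primed libraries had 454 to 839 CPM of VIM (median 640) and E-NHSM libraries 207, 221 and 250 CPM. The other protocols ran from 1858, 1529 and 1735 CPM in TL2i, through 2278, 2398 and 2076 in LCDM, 2289, 3307 and 2810 in TL-CDK8i, 2890, 2835 and 2932 in 4i/L/b and 3269, 2900 and 3222 in t2iLGöY, to 3861, 3888 and 3849 in NHSM-v. No protocol overlapped with the primed range. VIM had a log2 fold change of -1.53 in E-NHSM (SE 0.16, adjusted p 1.3e-06, 3 of 3 libraries), 1.39 in TL2i (adjusted p 7.1e-06, 3 of 3) and 2.55 in NHSM-v (SE 0.15, adjusted p 1.5e-09, 3 of 3), the last being 5.87-fold.

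**Figure D3:**
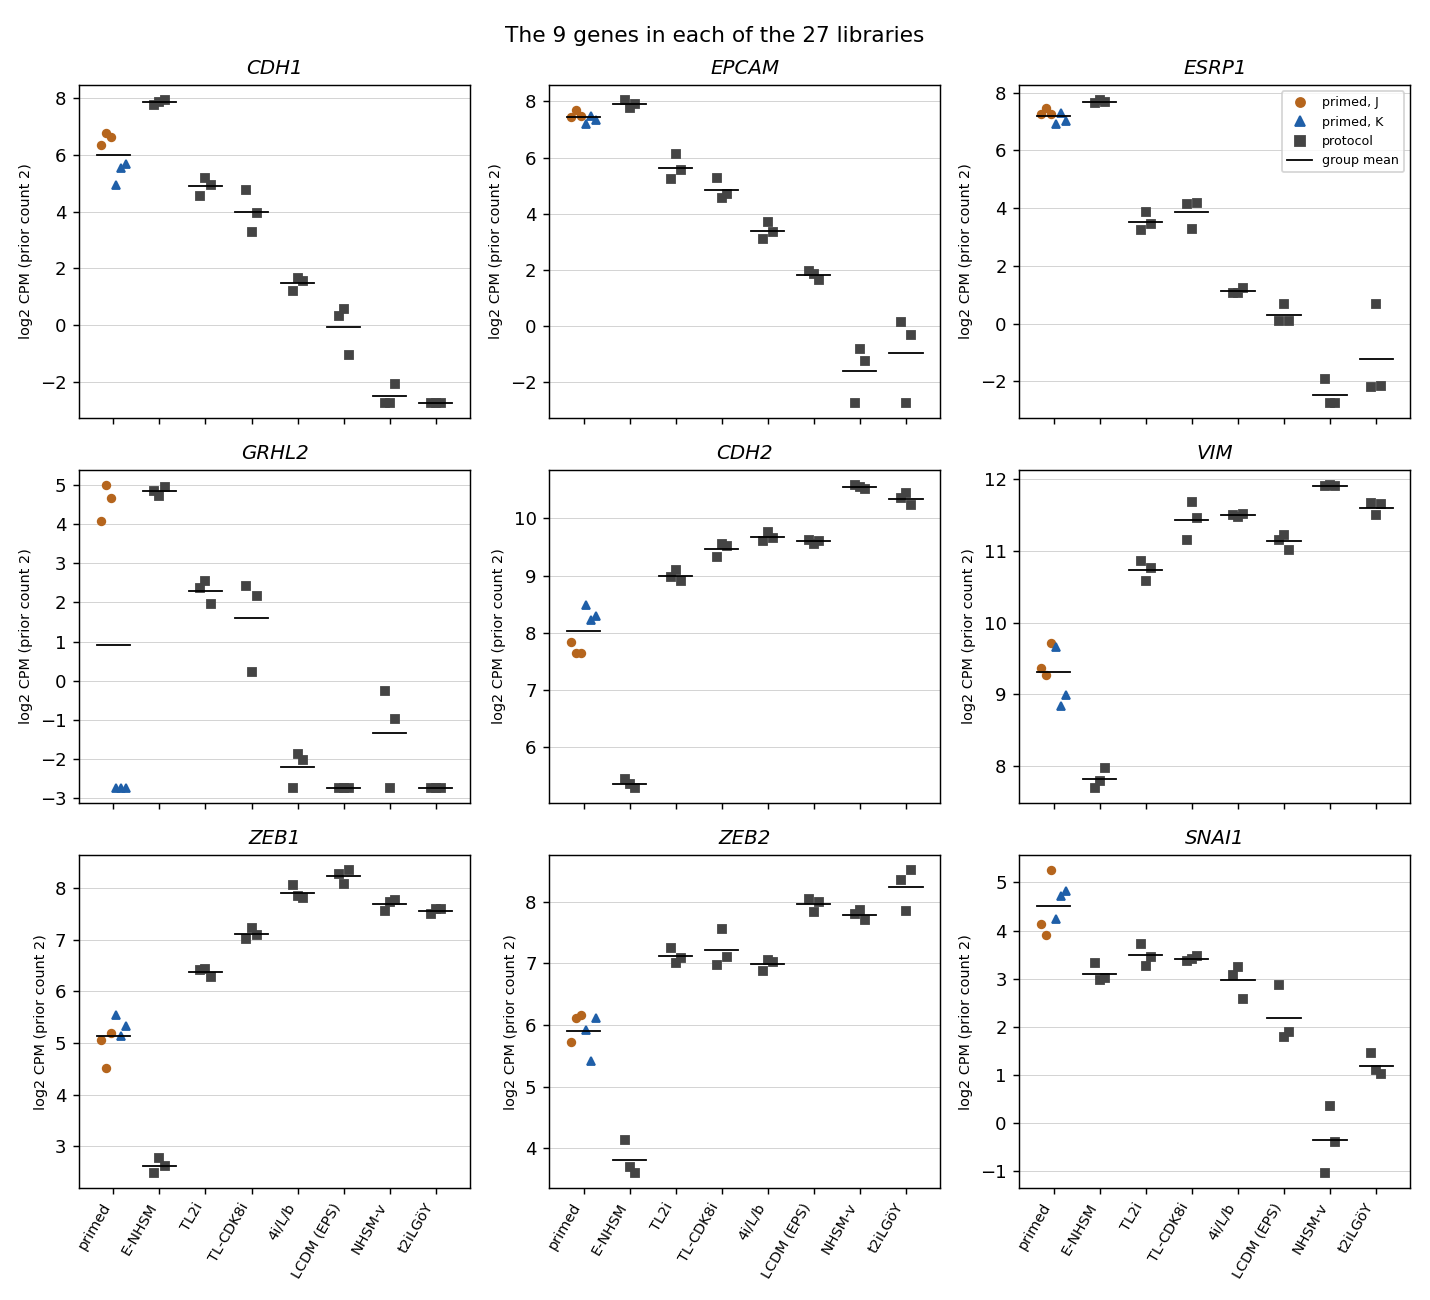
Log2 CPM (vertical axes, prior count 2) of the 9 genes in each of the 27 libraries by group (horizontal axis), with primed J as circles, primed K as triangles, protocols as squares and a line at each group mean. CDH1, EPCAM and ESRP1 are highest and CDH2, ZEB1, ZEB2 and VIM lowest in E-NHSM, SNAI1 is highest in primed cells, and GRHL2 has 0 counts in all 3 primed K libraries.

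The 7 protocols were also compared with each other, without the primed libraries, to ask whether the genes differed among them at all. All 9 did, where 90.9% of the 14699 genes tested did. Adjusted p-values ran from 2.0e-24 for CDH2 to 1.5e-08 for SNAI1. The mean of the highest group over that of the lowest, primed included, was 36.5 for CDH2, 34.2 for SNAI1, 50.3 for ZEB1, 21.9 for ZEB2 and 17.1 for VIM. No such ratio is given for CDH1, EPCAM, ESRP1 and GRHL2, whose lowest groups held few or no counts.

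TL-CDK8i was compared directly with TL2i, since both rest on STAT3-ERT2 and LIF and differ in their kinase inhibitors. Of the 9 members, 5 were called between these media and 4 were not. CDH2, ZEB1 and VIM were higher in TL-CDK8i, 3 of 9 where 31.5% of the 13729 genes tested were called higher. CDH1 and EPCAM were lower, 2 of 9 where 33.3% were called lower. ZEB1 had a log2 fold change of 0.71 (SE 0.09, adjusted p 1.4e-05), VIM 0.68 (SE 0.13, adjusted p 2.9e-04) and CDH2 0.44 (SE 0.09, adjusted p 8.9e-04). For these 3 genes all TL-CDK8i libraries lay above all TL2i libraries.

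EPCAM was lower in TL-CDK8i than in TL2i by a log2 fold change of -0.84 (SE 0.22, adjusted p 0.0036), with 1 TL-CDK8i library within the TL2i range. Leaving out single libraries gave EPCAM values from -1.1 (without TL-CDK8i replicate 1) to -0.54 (without TL2i replicate 2). CDH1 had -0.83 (SE 0.28, adjusted p 0.018), again with overlap, and its call was not stable. It was lost in DESeq2 (-0.81, adjusted p 0.13), in a fit of all 8 groups (-0.8, adjusted p 0.065), without TL-CDK8i replicate 2 (-0.53, adjusted p 0.074) or replicate 3 (-0.74, adjusted p 0.055), and without TL2i replicate 2 (-0.64, adjusted p 0.082) or replicate 3 (-0.8, adjusted p 0.057). Without TL-CDK8i replicate 1 the difference in CDH1 was larger (-1.3, adjusted p 4.1e-05). ESRP1 (log2 fold change 0.34, adjusted p 0.22), ZEB2 (0.08, adjusted p 0.6), SNAI1 (-0.11, adjusted p 0.61) and GRHL2 (-0.5, adjusted p 0.32) were not called, though ESRP1 passed without TL-CDK8i replicate 2 (0.59, adjusted p 0.028).

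NHSM-v and E-NHSM are versions of one medium and were compared directly to see how far apart they left the cells. All 9 members were called between them, as were most genes tested. CDH2, ZEB1, ZEB2 and VIM were higher in NHSM-v, 4 of 9 where 33.4% of the 13392 genes tested were called higher, and the other 5 were lower, where 34.8% were called lower. CDH2 was 36.4-fold higher (log2 fold change 5.19, adjusted p 4.4e-17), ZEB1 34.5-fold (5.11, adjusted p 6.5e-14), VIM 17.1-fold (4.09, adjusted p 7.4e-16) and ZEB2 15.7-fold (3.97, adjusted p 2.5e-12), in 3 of 3 libraries each.

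CDH1, with 1 count in NHSM-v, was 6935-fold lower there than in E-NHSM by the ratio of counts, with a 95% exact Poisson interval from 1245 to 273928. ESRP1, also with 1 count, was 6165-fold lower (1107 to 243507). EPCAM had a log2 fold change of -9.97 (adjusted p 5.7e-14) and -10.6 without NHSM-v replicate 2. GRHL2 was 83.6-fold lower (log2 fold change -6.38, SE 0.47, adjusted p 1.6e-08), and -7.18 without NHSM-v replicate 1. SNAI1 was lower in both media than in primed cells and lower still in NHSM-v (log2 fold change -3.6, SE 0.55, adjusted p 4.2e-05, 3 of 3 libraries).

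Primed K was set against primed J to show how far the members move among libraries labelled as primed cells. Few genes were called, 469 in all, yet both cadherins and GRHL2 were among them. Without single libraries the number called ran from 184 to 595, with 3 or 4 of the 9 members called. It was higher in DESeq2 and in 1 fit of all 8 groups. CDH2 was higher in K, 1 of 9 where 2.03% of the 12559 genes tested were called higher, and CDH1 and GRHL2 were lower, 2 of 9 where 1.7% were called lower. CDH1 had a log2 fold change of -1.18 (SE 0.19, adjusted p 0.0018) and CDH2 of 0.62 (SE 0.1, adjusted p 0.0015), each with all 3 K libraries beyond all 3 J libraries. GRHL2 was at least 102-fold lower in K (adjusted p 8.9e-07, 3 of 3 libraries). Looked up after its values were seen, GRHL2 was 1 of 5 genes among 11286 with 0 counts in every K library and at least 10 counts in each J library, the others being CDH12, CTSO, HRASLS and KRBOX4. Of 11725 genes, 6 showed the reverse.

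Marker genes also differed between the primed sets, and their part in the difference of CDH1 and CDH2 was not tested. Of the 8 pluripotency genes 3 were higher in K and 0 lower, namely SOX2 (log2 fold change 0.51, adjusted p 0.0027), LIN28A (0.33, adjusted p 0.023) and PRDM14 (0.5, adjusted p 0.0073). Their list summed to 2979 ± 68.9 CPM (SD, n = 3) in J and 3211 ± 2.1 in K, with POU5F1 the most abundant in both. Of 9 fibroblast or feeder genes tested 1 was lower in K, COL1A1 (-0.83, adjusted p 0.003), and 0 higher. The fibroblast sum was 3394 ± 118 CPM in J, led by COL1A1, and 2815 ± 560 in K, led by TAGLN, with DCN and LUM at 0 in both. No gene of the neural progenitor, neural crest, trophoblast, endoderm or mesoderm lists was called.

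The remaining 6 genes were not called between the primed sets. ZEB1 had a log2 fold change of 0.39 (adjusted p 0.39), VIM -0.27 (0.42), ESRP1 -0.26 (0.28), EPCAM -0.21 (0.34), ZEB2 -0.18 (0.71) and SNAI1 0.05 (0.96). Of these, ZEB1 passed in a fit of all 8 groups (0.4, adjusted p 0.04). VIM passed with no filter on low counts (adjusted p 0.024) and without primed replicate K1 (-0.56, adjusted p 0.021). The meaning of the letters being unknown, this difference cannot be assigned to a culture, a batch or a clone.

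Lists of genes with related roles were counted in the same comparisons, with the members left out. Their counts stand beside the shares of all genes called higher and lower, which were 11.1% and 15.1% in E-NHSM, 22.3% and 23.8% in TL-CDK8i, 25.6% and 25.2% in TL2i, 28% and 30.6% in NHSM-v, 26.6% and 29% in 4i/L/b, 28.2% and 28.9% in LCDM and 27.1% and 27.2% in t2iLGöY. The shares were 31.5% and 33.3% in TL-CDK8i against TL2i and 33.4% and 34.8% in NHSM-v against E-NHSM. In primed K against primed J they were 2.03% and 1.7%. No test compared a list with all genes, and several counts lie near these shares. Genes near 0 in primed cells were tested only where a protocol had enough counts of them, so in every list the number higher can rise with the number tested. Among 33 other genes of epithelial structure and regulation, E-NHSM had 9 higher and 9 lower of 31 tested and a median log2 fold change of 0.39. In the other protocols, where CDH1, EPCAM and ESRP1 were lower, more of the list was lower than higher. It had 6 higher and 11 lower of 32 in TL2i (median -0.29), 6 and 15 of 30 in TL-CDK8i (-0.95), 0 and 23 of 29 in 4i/L/b (-1.87), 1 and 22 of 28 in NHSM-v (-3.18), 1 and 21 of 28 in t2iLGöY (-3.53) and 1 and 22 of 28 in LCDM (-3.83). The medians were the same with genes at 0 placed at their bound. The median of all genes tested lay between -0.04 and 0.07 in the comparisons with a direction.

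CLDN6, a tight junction claudin, had a log2 fold change of only -0.44 in NHSM-v (adjusted p 6.1e-05), where CDH1 held 1 count. The other claudins of the list, CLDN3, CLDN4 and CLDN7, did not exceed the floor of 3 counts in any NHSM-v library. CLDN6 had -1 in TL-CDK8i, -1.66 in 4i/L/b, -1.98 in TL2i, -5.47 in t2iLGöY and -6.11 in LCDM, with adjusted p-values from 8.1e-14 to 1.9e-07. KRT8, a keratin, went against the list in TL-CDK8i (1.68, adjusted p 2.4e-08) and in TL2i (1.16, adjusted p 8.4e-07), where CDH1 and EPCAM were lower. In E-NHSM, F11R, a junctional adhesion molecule, was higher (0.73, adjusted p 1.8e-06), as CDH1 was, while DSP, a desmosomal plaque gene, was lower (-0.74, adjusted p 4.4e-06). Between NHSM-v and E-NHSM, 3 genes were higher and 26 lower of 31. TL-CDK8i against TL2i gave 12 higher and 12 lower of 33, and primed K against primed J 1 and 3 of 28, with PKP2 higher and SPINT1, CLDN7 and AP1M2 lower.

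Among 24 genes of mesenchymal structure, the protocols parted in a way that CDH2, ZEB1, ZEB2 and VIM did not. E-NHSM had 1 higher and 19 lower of 24 (median log2 fold change -1.6), as those 4 members were lower there. TL-CDK8i had 17 higher and 1 lower (1.76), TL2i 13 and 5 (0.46), 4i/L/b 16 and 3 (1.67) and NHSM-v 17 and 1 of 23 tested (1.59). LCDM had 0 higher and 17 lower (-1.38) and t2iLGöY 7 and 12 (-0.65), while CDH2, ZEB1, ZEB2 and VIM were higher in both.

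FN1, which encodes the matrix protein fibronectin, had a log2 fold change of 2.74 in NHSM-v (adjusted p 1.7e-09) and 2.78 in 4i/L/b (adjusted p 1.6e-08), but -1.27 in LCDM (adjusted p 1.2e-04) and -0.59 in t2iLGöY (adjusted p 0.01). CALD1, an actin-binding gene, had -2.81 in LCDM (adjusted p 8.2e-12) and -2.04 in t2iLGöY (adjusted p 5.8e-11). It was also lower in TL2i (-1.01, adjusted p 6.4e-07) and E-NHSM (-0.33, adjusted p 0.0017). In TL-CDK8i (1.4, adjusted p 1.3e-08) and NHSM-v (0.37, adjusted p 4.3e-04) it was higher. SPARC, a matrix gene, parted LCDM (-0.44, adjusted p 0.0064) from t2iLGöY (1.63, adjusted p 5.7e-09). Between NHSM-v and E-NHSM, 22 of 23 were higher and 0 lower. TL-CDK8i against TL2i gave 18 higher and 4 lower of 24, and primed K against primed J 1 and 4 of 23.

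Of 16 other transcription factors tied to the transition, the called genes were 3 higher and 6 lower of 15 tested in E-NHSM (median log2 fold change -0.37), 4 and 2 of 15 in TL-CDK8i (0.79), 4 and 3 of 14 in TL2i (0.27), 7 and 1 of 14 in NHSM-v (0.55), 7 and 0 of 15 in 4i/L/b (0.38), 4 and 3 of 15 in LCDM (-0.03) and 5 and 4 of 14 in t2iLGöY (0.22). Several of these counts, such as those in TL2i and LCDM, lie near the shares of all genes. SNAI2, the paralogue of SNAI1, was higher in TL-CDK8i (1.63, adjusted p 8.5e-04), TL2i (2.62, adjusted p 7.0e-06), 4i/L/b (3.25, adjusted p 2.8e-07), NHSM-v (3.39, adjusted p 4.6e-08) and t2iLGöY (3.56, adjusted p 1.0e-07). Like SNAI1, SNAI2 was lower in LCDM (-1.44, adjusted p 0.041), and it was not called in E-NHSM (-0.32, adjusted p 0.65). HMGA2, a chromatin factor, had -2.43 in E-NHSM (adjusted p 1.3e-10), the direction of ZEB1 and ZEB2 there, and -0.59 in t2iLGöY (adjusted p 7.9e-04), the opposite of theirs. TL-CDK8i against TL2i gave 9 higher and 5 lower of 16, NHSM-v against E-NHSM 10 and 2 of 14, and primed K against primed J 0 and 1 of 14, PRRX1.

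The 10 catenins and partners that link cadherins such as CDH1 and CDH2 to the cytoskeleton, directly or through each other, gave counts that in part lie near the shares of all genes. Higher and lower genes of 9 tested (10 in NHSM-v) numbered 1 and 3 in E-NHSM (median -0.15), 4 and 2 in TL-CDK8i (0.18), 4 and 3 in TL2i (0.04), 5 and 1 in NHSM-v (0.52), 6 and 2 in 4i/L/b (0.34), 3 and 5 in LCDM (-0.27) and 5 and 4 in t2iLGöY (0.49). CTNNB1, which encodes beta-catenin, was lower in E-NHSM (log2 fold change -1.34, adjusted p 1.3e-10), where CDH1 was higher and CDH2 lower, and higher in NHSM-v (0.54, adjusted p 2.1e-06). TL-CDK8i against TL2i gave 3 higher and 4 lower of 9, NHSM-v against E-NHSM 6 and 1 of 9, and primed K against primed J 1 and 0 of 9.

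**Figure D4:**
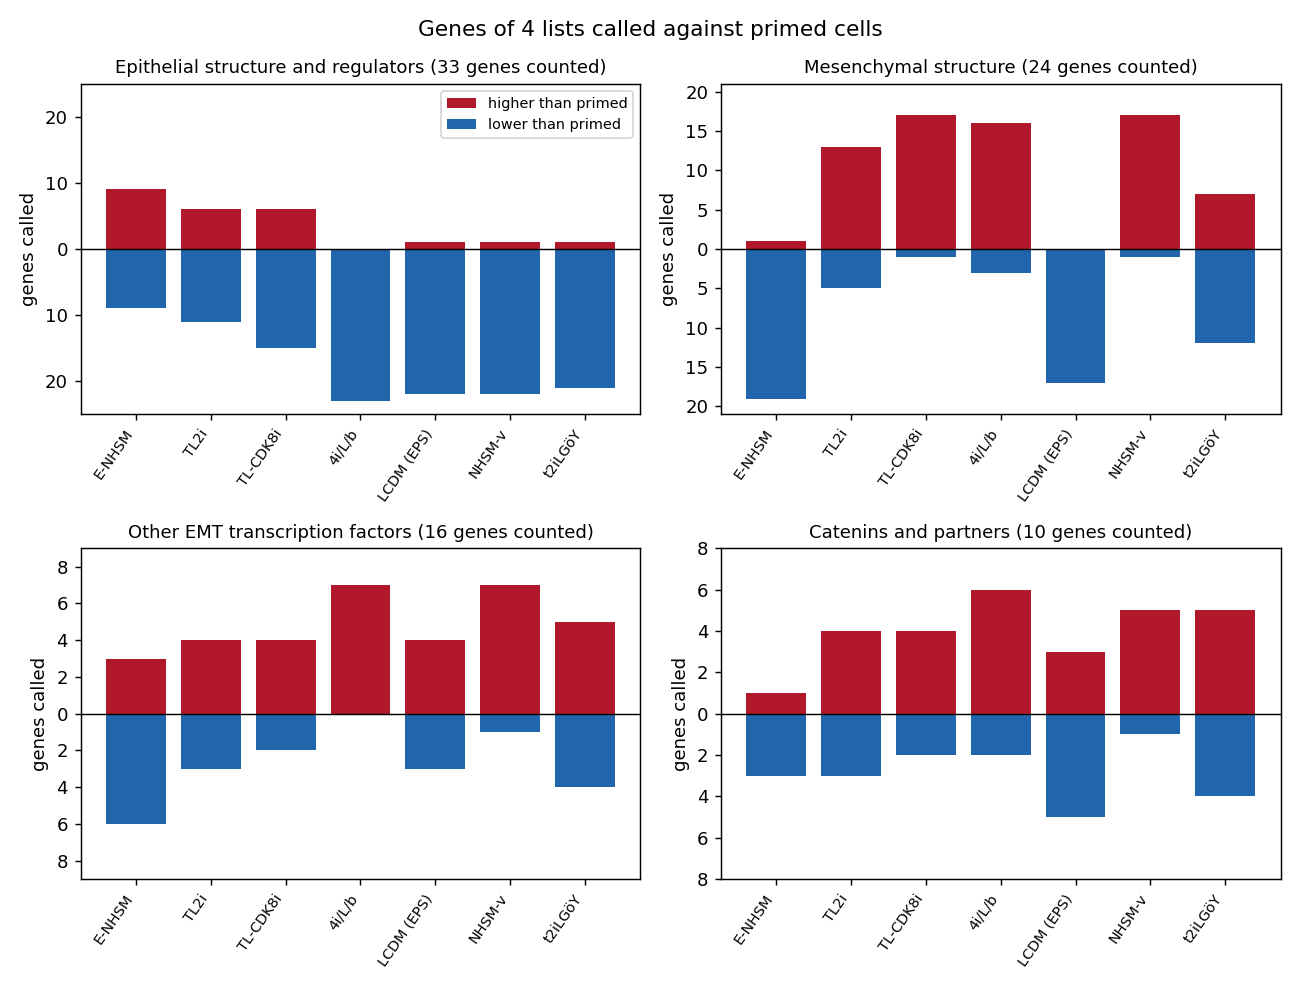
Number of genes called higher (above 0) and lower (below 0) than in primed cells (vertical axes) in each protocol (horizontal axes) for 4 lists, the members left out. Mesenchymal genes number 0 higher and 17 lower in LCDM and 17 higher and 1 lower in NHSM-v.

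Markers of cell types were summed in each library to show what else moved beside the cadherins, and their part in the result was not tested. The 8 pluripotency genes summed to 3095 CPM on average in primed cells and 3221 in E-NHSM, with 2 genes higher and 2 lower in E-NHSM (median log2 fold change 0.15). The sum was 1342 CPM in TL-CDK8i, 375 in TL2i, 342 in LCDM, 123 in 4i/L/b, 114 in t2iLGöY and 103 in NHSM-v. Of the 8 genes, 8 were lower in TL2i (median -7.72, or -6.74 with genes at 0 placed at their bound), NHSM-v (-9.46, or -9.1) and 4i/L/b (-8.87, or -8.35). In TL-CDK8i (-1.23), LCDM (-8.1, or -7.9) and t2iLGöY (-10.06, or -9.62) 7 were lower, and none was higher in these 6 protocols. The most abundant was POU5F1 in primed cells, E-NHSM and TL-CDK8i, LIN28A in TL2i and SOX2 in the rest. POU5F1 averaged 1182 CPM in primed cells, 1365 in E-NHSM, 502 in TL-CDK8i and 6.44 in TL2i, and NANOG was at 0 counts in NHSM-v and t2iLGöY.

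The list of neural progenitor markers, which also holds the neuron genes TUBB3, MAP2 and DCX, had 14 genes and was led by NES in every group. It summed to 2580 CPM in primed cells, 1430 in E-NHSM, 2206 in TL-CDK8i, 3012 in TL2i, 3144 in NHSM-v, 3292 in 4i/L/b, 4261 in t2iLGöY and 7197 in LCDM. NES itself was lower in E-NHSM (log2 fold change -0.92), TL-CDK8i (-0.41), t2iLGöY (-0.37) and NHSM-v (-0.34), and higher in LCDM (0.35). TUBB3 had 6.11 in LCDM and 6.08 in t2iLGöY. Called genes were 1 higher and 2 lower of 8 tested in E-NHSM, 4 and 1 of 9 in TL-CDK8i, 7 and 0 of 11 in TL2i, 10 and 2 of 13 in NHSM-v, 8 and 0 of 11 in 4i/L/b, 13 and 0 of 14 in LCDM and 12 and 1 of 14 in t2iLGöY. SOX1 and HES5, near 0 in primed cells, are among the genes tested only where a protocol had enough counts. The 9 neural crest markers summed to 130 CPM in primed cells, 136 in E-NHSM, 326 in TL-CDK8i, 368 in NHSM-v, 668 in 4i/L/b, 742 in LCDM, 845 in TL2i and 1128 in t2iLGöY, with ETS1 the most abundant in primed cells, PAX3 in NHSM-v and TFAP2B in LCDM and t2iLGöY. Crest genes were 1 higher and 2 lower of 6 tested in E-NHSM, 6 and 1 of 8 in TL-CDK8i, 9 and 0 of 9 in TL2i, 5 and 1 of 8 in NHSM-v, 7 and 1 of 9 in 4i/L/b, 6 and 2 of 9 in LCDM and 8 and 1 of 9 in t2iLGöY.

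The 11 fibroblast or feeder markers, of which PDGFRB and THY1 are also in the mesenchymal list, summed to 3104 CPM in primed cells, 1054 in E-NHSM, 1104 in LCDM, 4143 in t2iLGöY, 6107 in TL2i, 12783 in NHSM-v, 13544 in TL-CDK8i and 16653 in 4i/L/b. COL1A1 was the most abundant except in E-NHSM, where TAGLN was. DCN and LUM, defining fibroblast genes, were at 0 in primed cells, E-NHSM and t2iLGöY, and above the floor in the other 5 protocols. In LCDM, DCN averaged 7.12 CPM and LUM 3.4 CPM, against 41.3 and 46.7 in 4i/L/b, and LUM was called higher in LCDM (adjusted p 6.3e-04). The more abundant COL1A1 (log2 fold change -1.04, adjusted p 0.0027), TAGLN (-3.85, adjusted p 3.7e-12) and COL1A2 (-1.76, adjusted p 4.7e-07) were lower in LCDM. Genes higher and lower numbered 0 and 8 of 9 tested in E-NHSM, 9 and 0 of 11 in TL-CDK8i, 9 and 1 of 11 in TL2i, 10 and 0 of 11 in NHSM-v, 10 and 1 of 11 in 4i/L/b, 2 and 6 of 11 in LCDM and 4 and 3 of 9 in t2iLGöY. The part of such cells in the levels of CDH2 and VIM was not tested.

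Marker sums of 3 other lineages were highest in TL-CDK8i or TL2i, and the calls among them depend in part on which genes had enough counts to be tested. The 9 trophoblast markers averaged 45.9 CPM in primed cells and 15.3 to 64.8 CPM in 6 protocols, with 235 CPM in TL-CDK8i, of which KRT7 was 162. Trophoblast genes called higher numbered 3 of 5 tested in TL-CDK8i and 3 of 6 in TL2i, with 0 lower, and in the other 5 protocols 0 were higher and 0 to 2 lower. The 9 endoderm markers averaged 28.8 CPM in primed cells and 1.29 to 59.9 CPM in 6 protocols, with 276 CPM in TL2i, of which APOA1 was 176. Endoderm genes were 7 higher and 1 lower of 9 in TL2i, 3 and 1 of 8 in 4i/L/b and 2 and 0 of 7 in TL-CDK8i, and in the other 4 protocols 0 were higher and 1 to 3 lower. The 7 mesoderm markers averaged 27.5 CPM in primed cells and 9.88 to 45.2 CPM in 6 protocols, with 90.9 CPM in TL-CDK8i, of which EOMES was 55.7. Mesoderm genes were 2 higher and 0 lower of 6 in TL-CDK8i, 2 and 1 of 6 in 4i/L/b, 1 and 2 of 6 in TL2i and in NHSM-v, and in the other 3 protocols 0 were higher and 1 to 2 lower. Their part in the levels of CDH1 and CDH2 was not tested.

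**Figure D5:**
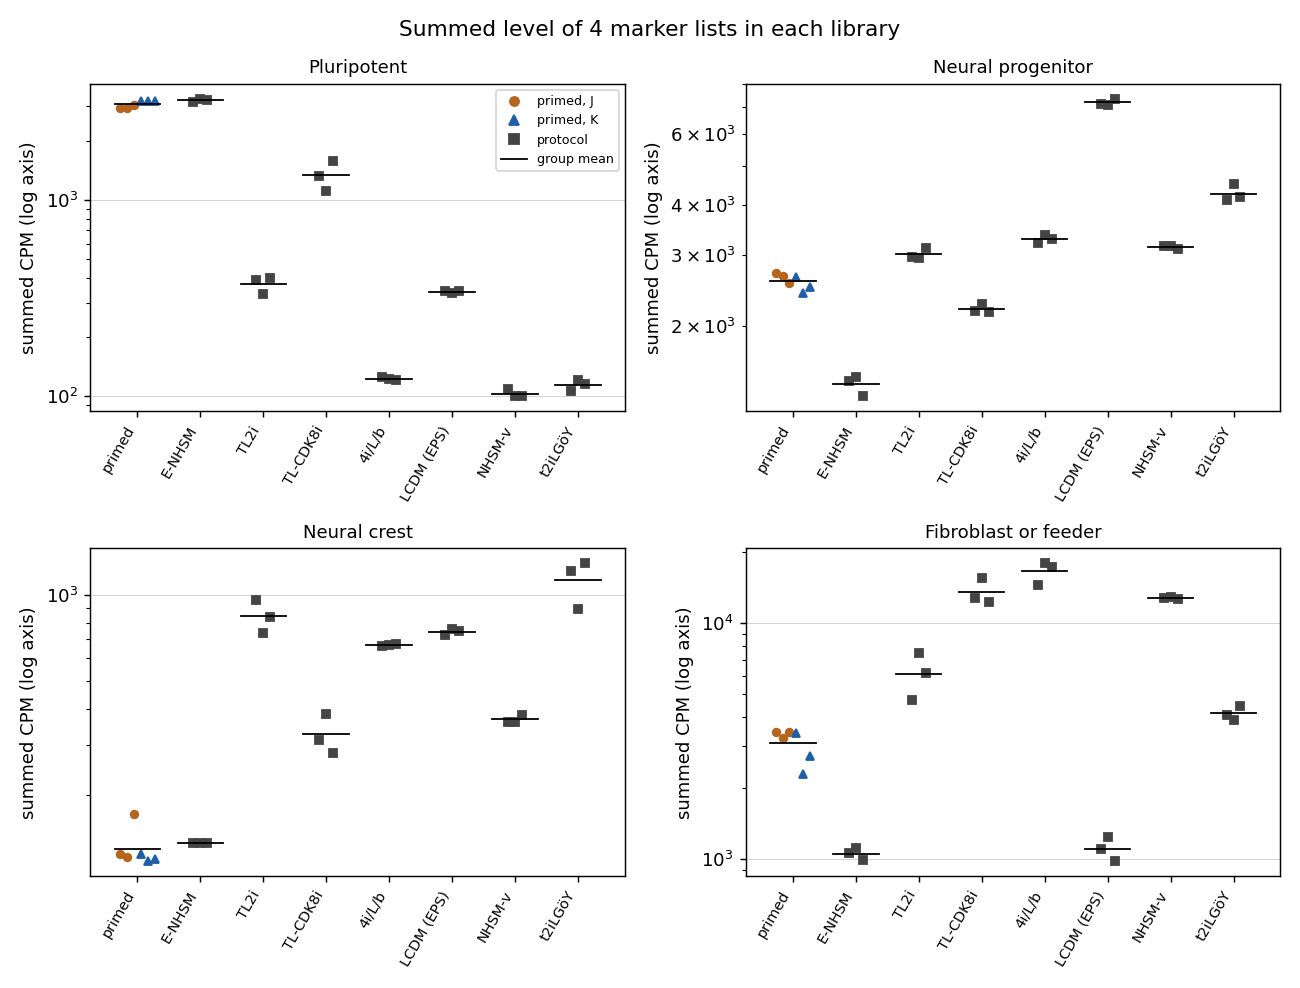
Summed CPM (vertical axes, log scale) of 4 marker lists in each of the 27 libraries by group (horizontal axes), with primed J as circles, primed K as triangles, protocols as squares and a line at each group mean. Pluripotency genes average 3095 CPM in primed cells and 103 in NHSM-v, and fibroblast genes 16653 CPM in 4i/L/b and 1104 in LCDM.

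Genes whose log2 CPM averaged 3 or more, 9908 of them, were ranked by how closely their levels followed a member across the 27 libraries. This is a description that says nothing of shared function, and it rests on differences between groups. CDH1 was most like TPI1 (r = 0.969, and 0.981 over the 8 group means), LIN28A (0.968, and 0.975) and PPP2R1B (0.96, and 0.99), and JAM2 (-0.97, and -0.975) and RHOBTB2 (-0.961, and -0.97) were among the genes most unlike it. LIN28A is also in the pluripotency list. CDH2 was most like TBC1D9 (0.977, and 0.979), MAP7D1 (0.953, and 0.975) and PLXNA2 (0.948, and 0.957). ZEB1 was most like MEIS3 (0.972, and 0.989), GOLIM4 (0.971, and 0.984) and KALRN (0.971, and 0.98). Within groups, once each group mean was taken off, 3 of these relations changed sign. There r was 0.534 for TPI1, 0.0137 for LIN28A, -0.643 for PPP2R1B, -0.329 for JAM2 and -0.271 for RHOBTB2 with CDH1. It was 0.722 for TBC1D9, -0.496 for MAP7D1 and 0.131 for PLXNA2 with CDH2, and -0.647 for MEIS3, 0.288 for GOLIM4 and 0.336 for KALRN with ZEB1. The levels of JAM2 were 32.3 CPM on average in primed cells, 20.8 in E-NHSM and 268 in NHSM-v, the reverse of CDH1.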

How the data were processed

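The counts per gene deposited by the authors for 27 bulk RNA-seq libraries were used as they are, 17967 genes by symbol. The submitters name bcl2fastq, cutadapt, HISAT2 and HTSeq, without versions; the genome build and annotation are not given in the sources used here. Columns were matched to samples by their names (27 mapped, 0 not mapped), the 6 primed columns only as a group, since their letters match no label. Libraries were compared by edgeR (version 4.0.16, loaded beside limma 3.58.1, under R 4.3.3) with filterByExpr, TMM and the quasi-likelihood F test (Benjamini-Hochberg adjusted p under 0.05 over all genes tested), in 7 comparisons with primed cells, 2 between protocols, 1 among all 7 protocols and 1 between the primed columns of letters K and J. A gene was called where it passed. SE is the absolute log2 fold change over the square root of F. CPM use TMM library sizes of all 27 libraries. The ratio of CDH1 to CDH2 had 0.5 added to each count. Where a group's libraries were all at 0, a floor of 3 counts per library gave a bound, and for 1 to 3 counts in a group the ratio of counts was given with its 95% exact Poisson interval. Alternatives were DESeq2 1.42.0, upper-quartile factors, no filter, at least 10 counts in every library, an absolute log2 fold change of at least 1, 1 fit of all 8 groups, primed J or primed K alone, a replicate block, 1 or 0 added in the ratio, CPM on plain totals or DESeq2 size factors, and each library left out in turn. The procedure was tested on simulated data.

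The 9 members and the lists (epithelial, mesenchymal, other transcription factors, catenins, and markers of pluripotent, neural progenitor, neural crest, fibroblast, trophoblast, endoderm and mesoderm cells) were chosen with earlier results of these data known. Of 152 list symbols 147 were found. KRT18, KRT19, PATJ, AFDN and TBXT were not, and older symbols were not matched. Lists were counted, with no test of a list. Genes named besides the members are, per list and comparison, up to 4: the 3 of highest mean log2 CPM among those passing in the majority direction and the highest going the other way. For likeness they are the 3 highest correlations with CDH1, CDH2 and ZEB1 and, from the 3 lowest with CDH1, the 2 given. Other genes named were chosen after their values were seen.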

Additional observations from a re-analysis of the deposited data

Results flagged for a closer look

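CDH1, ESRP1, EPCAM, CDH2, ZEB1, VIM and ZEB2 were called in opposite directions in NHSM-v and E-NHSM against the same 6 primed libraries, and each passed the direct test between both media, which does not use the primed libraries. The log2 fold change of NHSM-v against E-NHSM was -12.44 for CDH1 (adjusted p 9.0e-15), -12.26 for ESRP1 (1.5e-14) and -9.97 for EPCAM (5.7e-14). It was 5.19 for CDH2 (4.4e-17), 5.11 for ZEB1 (6.5e-14), 4.09 for VIM (7.4e-16) and 3.97 for ZEB2 (2.5e-12). Of all 13392 genes tested between both media, 33.4% were called higher and 34.8% lower in NHSM-v, so a call between them is common. CDH1 and ESRP1 had 1 count each in NHSM-v, so their fitted values are no bound, and without the library that held the count they were -14.79 for CDH1 (without NHSM-v replicate 3) and -14.66 for ESRP1 (without NHSM-v replicate 1). EPCAM had -10.6 without NHSM-v replicate 2.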

How the results depend on the processing

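Of 1591 values of the 9 genes recomputed under an alternative, 1551 kept their direction and their side of the threshold, 25 lost the call, 7 gained it and 8 changed sign. Settings in which a gene did not pass the filter gave no value and are outside this tally. Among them are GRHL2 in NHSM-v, 4i/L/b, LCDM and t2iLGöY without J1, J2 or J3, and genes dropped where 10 counts in every library were required. The sign changed for GRHL2 against primed K alone, to 8.24 in TL-CDK8i and 9.17 in TL2i, where primed K holds no count, so that these fitted values are no bound. The other changes of sign came in genes that were not called. In TL-CDK8i against TL2i, leaving out single libraries gave -0.1 to 0.19 for ZEB2 (-0.1 without TL-CDK8i replicate 2) and -0.19 to 0.05 for SNAI1 (0.05 without TL2i replicate 1). In primed K against primed J it gave -0.19 to 0.59 for SNAI1 (0 without K2, -0.07 without K3, -0.12 without J1 and -0.19 without J2). With an absolute log2 fold change of at least 1 required, the genes called numbered 1209 in E-NHSM (3486 without the limit), 2584 in TL-CDK8i (6162), 3336 in TL2i (7007), 4560 in NHSM-v (7775), 3928 in 4i/L/b (7543), 4354 in LCDM (7782), 4298 in t2iLGöY (7422), 3848 in TL-CDK8i against TL2i (8906), 5537 in NHSM-v against E-NHSM (9141) and 89 in primed K against J (469), and in TL-CDK8i against TL2i 0 of the 9 genes passed, by construction. That limit also ended the calls of EPCAM (0.46) and ESRP1 (0.47) in E-NHSM. CDH2 lost its call in TL2i (0.93) and in primed K against J (0.62). In 1 fit of all 8 groups 5255 genes were called in E-NHSM and 1605 between the primed sets, which DESeq2 put at 746, no filter at 823 and leaving out single libraries at 184 (without K3) to 595 (without J3), with 187 without K2, 264 without K1, 266 without J2 and 298 without J1; the cause was not tested. With at least 10 counts in every library fewer genes were tested, and 4 of the 9 were called in NHSM-v, 5 in t2iLGöY and 4 in NHSM-v against E-NHSM. Upper-quartile factors moved the share of calls that were higher from 42.3% to 52.3% in E-NHSM and from 54.4% to 44.3% between the primed sets. With an absolute log2 fold change of at least 1 required, that share was 37% in E-NHSM and 28.1% between the primed sets. It went from 48.4% to 65.4% in TL-CDK8i and from 50.4% to 61.1% in TL2i under that limit. A replicate block left 8420 genes and 5 of the 9 called in TL-CDK8i against TL2i, 8787 and 9 in NHSM-v against E-NHSM and 13246 and 9 among the 7 protocols. In the 2 comparisons between protocols, deviations of same-numbered libraries correlated at -0.127 to 0.011. No pairing by replicate number was seen there, though so few libraries cannot exclude a shared preparation. Among the 7 protocols this was not checked. Against primed cells, fitted values with few counts moved by over 1.5 times, CDH1 in NHSM-v from -10.59 to -12.46 without NHSM-v replicate 3 and to -9.92 with primed K alone, and ESRP1 in NHSM-v from -11.69 to -13.6 without NHSM-v replicate 1. With primed K alone CDH1 also moved by over 1.5 times where its counts were not few. It went from 1.74 to 2.44 in E-NHSM, from -2.05 to -1.36 in TL-CDK8i and from -1.2 to -0.52 in TL2i. GRHL2 in LCDM went from -10.35 to -23.52 in DESeq2. Group means of CPM moved by more than their SD in 9 cases on plain totals (63 did not) and in 1 on DESeq2 size factors (71 did not). Depth limits CDH1, ESRP1, EPCAM and GRHL2 in the groups where they hold a few counts.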
